A study of Mus musculus with 6 samples.

Results

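Matrix metalloproteinases, the related ADAMTS proteases, the ADAMTS-like proteins and the tissue inhibitors of metalloproteinases were followed in the soleus of mice, a slow-twitch muscle of the calf. Members were the array features that carried exactly 1 gene symbol beginning with Mmp, Adamts, Adamtsl or Timp and a number. This gave 49 genes, each with 1 feature, among 30145 genes with a single symbol. They comprised 22 Mmp, 18 Adamts, 5 Adamtsl and 4 Timp genes. Adamts2 and Mmp15 also fit the naming pattern in RefSeq and were not analysed here. RNA came from the soleus muscles of both legs of male mice aged 39 to 41 weeks. The 3 Control mice were labelled wild type, and the series title calls them littermates. The 3 cKO mice carried a DMP1 Cre Mbtps1 knockout, a deletion of Mbtps1 (site-1 protease) in cells that express a Cre recombinase under regulatory sequence of Dmp1. That driver is best known from osteocytes, the cells embedded in bone, and the labels did not say which soleus cells it reached or whether Controls carried Cre or floxed alleles. The comparison asked how the muscle of these mice differs from that of their Controls.

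Matrix metalloproteinases are zinc enzymes that cut collagens, gelatin, laminins and other matrix proteins. Most are secreted as inactive precursors, and the membrane-type enzymes such as Mmp14 are held at the cell surface. ADAMTS proteases are secreted zinc enzymes that trim procollagens, cleave versican and other proteoglycans, or act on single proteins such as von Willebrand factor. ADAMTS-like proteins share the matrix-binding part of that family but lack the protease domain. The inhibitors Timp1 to Timp4 bind the active site of these enzymes. In skeletal muscle the system remodels the connective tissue around fibres and takes part in growth, repair and adaptation to load.

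The values were read as log2 signals and are given below in the order of replicates 1 to 3, with array medians between 4.004 and 4.37, the highest of them in cKO 1. Mbtps1 itself stood at 7.39, 7.05 and 7.24 in Control and at 7.77, 7.44 and 7.11 in cKO, so the groups overlapped and the gene does not check the labels in whole muscle. The mice carried numbers in 2 ranges, low (715, 716 and 733, which were Control 1, Control 2 and cKO 1) and high (776, 779 and 780, which were Control 3, cKO 2 and cKO 3). The labels did not say what a range stands for. Genes that define skeletal muscle fibres were all above the filter (14 of 14), with list means of 17.2 to 17.3 on every array. Of 11 bone and osteocyte markers, 7 lay below the filter, Dmp1 and Sost among them. Tendon markers, from cells at the end of the muscle, stood apart by genotype, with list means of 5.55 to 6.25 in Control and 6.76 to 6.98 in cKO. In whole muscle, fewer cells of a type and less RNA per cell cannot be told apart.

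Over the median of its array on at least 3 arrays, the filter used here for testing, lay 21 of the 49 members. All 21 passed through both groups, 20 of them on all 6 arrays. The 28 others gave low signals in soleus, and 17 of these were Mmp genes. The tested set held 3 of 4 Timp genes, 5 of 22 Mmp genes, 9 of 18 Adamts genes and 4 of 5 Adamtsl genes. No member came near the ceiling of the scale, the highest single value being 10.93 against array maxima of 19.77 to 19.93.

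No member passed the test between cKO and Control. By limma with Benjamini-Hochberg adjustment over 33334 features, 0 of 21 members had an adjusted p under 0.05, and 0.0% of all features did. The adjusted p was 0.999 for each of the 21. At an unadjusted p under 0.05 there were 3 members, Timp4, Adamts10 and Adamtsl5, all higher in cKO. At that level 4.5% of all features were called, 3.7% higher and 0.807% lower. At an unadjusted p under 0.01 with a fold of at least 1.5 there were 0 members, against 0.669% of features. The median difference of the tested members, cKO minus Control, was 0.13 log2 units against 0.07 for all features tested. On the deposited scale 19 of 21 members were higher in cKO, where 65.8% of all features were. After quantile normalization, which gives every array the same distribution, 12 of 21 members were higher against 49.1% of all features, and after centring on array medians 16 of 21 against 53.4%. The count of higher members thus moved with the scaling.

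**Figure D1:**
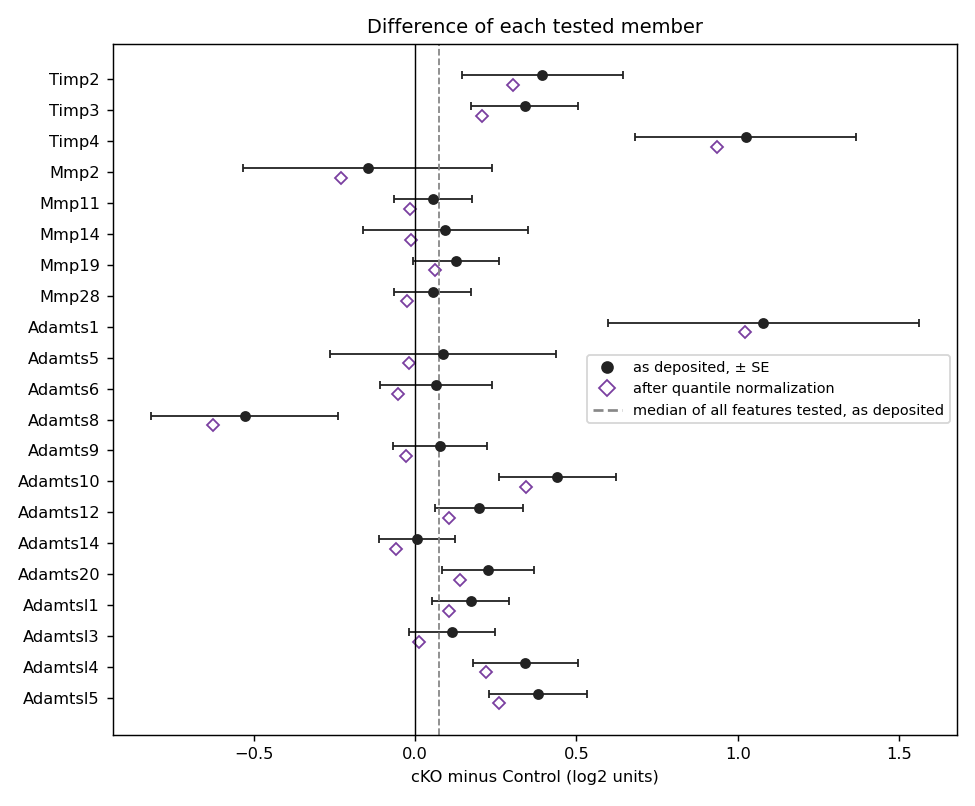
Difference between cKO and Control (x axis, log2 units) for each of the 21 tested members (y axis). Black points with bars are the deposited values with limma's standard error, open diamonds are the same difference after quantile normalization, and the dashed line marks the median of all features tested at 0.07. Timp4 and Adamts1 lie near 1, Adamts8 at -0.53, and the open diamonds lie to the left of the black points.

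In 7 of the 21 members all cKO arrays lay above all Control arrays. These were Timp3, Timp4, Adamts1, Adamts10, Adamtsl1, Adamtsl4 and Adamtsl5. The same held for 8.95% of all features. In 0 members did the cKO arrays lie wholly below, against 2.05% of all features. After quantile normalization 3 members were separated this way (Timp4, Adamtsl1 and Adamtsl5) against 4.99% of features, and 0 lay wholly below against 4.97%. After centring on array medians there were also 3 (Adamts1, Adamts20 and Adamtsl1) against 5.15%. Adamtsl1 was the 1 member separated under all 3 scalings.

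**Figure D2:**
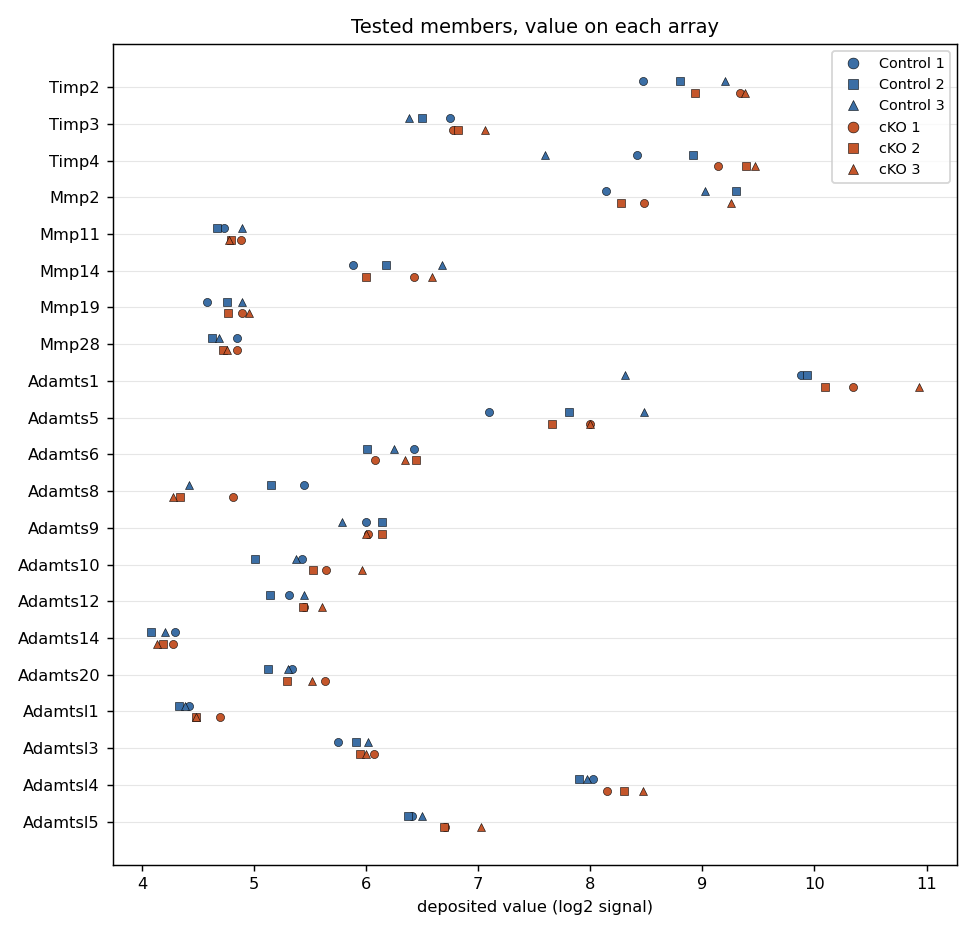
Deposited log2 signal (x axis) of the 21 tested members (y axis, inhibitors first, then Mmp, Adamts and Adamtsl genes), with 1 symbol per array, Control in blue and cKO in orange. Control 3 is the lowest array for Timp4 and Adamts1, and Control 1 is the lowest for Timp2, Mmp2, Mmp14 and Adamts5. Signals of different features have different scales, so rows are read across arrays and not against each other.

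The promoters of 3 members are shown because Timp4 and Adamts1 had the largest differences and Adamtsl5 was separated with the least spread among the members at an unadjusted p under 0.05. Each is the 250 bases before the annotated start, 5′ to 3′, from RefSeq on GRCm38.p6, with capitals for the GC box (GGGCGG) and the TATA box (TATAAA) on either strand.
Timp4, chr6:115252206-115252455, minus strand: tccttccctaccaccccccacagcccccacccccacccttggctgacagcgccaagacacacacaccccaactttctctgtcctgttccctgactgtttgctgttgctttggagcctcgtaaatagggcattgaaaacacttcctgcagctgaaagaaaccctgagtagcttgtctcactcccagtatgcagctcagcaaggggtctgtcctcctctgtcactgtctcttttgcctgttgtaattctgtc
Adamts1, chr16:85803114-85803363, minus strand: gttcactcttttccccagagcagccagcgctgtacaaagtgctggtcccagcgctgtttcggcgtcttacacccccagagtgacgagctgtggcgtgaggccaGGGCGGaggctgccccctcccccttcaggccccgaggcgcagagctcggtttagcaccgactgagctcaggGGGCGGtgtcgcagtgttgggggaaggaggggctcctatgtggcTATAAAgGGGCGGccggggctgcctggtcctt
Adamtsl5, chr10:80348449-80348698, minus strand: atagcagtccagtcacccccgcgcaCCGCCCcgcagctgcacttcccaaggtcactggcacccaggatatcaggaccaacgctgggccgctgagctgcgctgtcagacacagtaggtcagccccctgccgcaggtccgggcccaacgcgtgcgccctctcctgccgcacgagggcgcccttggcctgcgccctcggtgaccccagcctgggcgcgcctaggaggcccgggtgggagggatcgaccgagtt
Adamts1 had 3 GC boxes and 1 TATA box, Adamtsl5 had 1 GC box, and the Timp4 stretch held no match to either motif. Over 32851 promoters of 300 bases in the same table, 35.7% held a GC box and 13.6% a TATA box. Such a match is a description of the letters and not a site shown to be used.

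Among the inhibitors, Timp4 had the largest difference. Timp4 is a secreted inhibitor known from heart, muscle and fat. Its log2 signal was 8.42, 8.92 and 7.59 in Control and 9.14, 9.39 and 9.47 in cKO. The groups did not overlap, and Control 3 lay below all other arrays. The means were 8.31 ± 0.67 (SD, n = 3) and 9.33 ± 0.17 (SD, n = 3), a difference of 1.02 log2 units (SE 0.34, a fold of 2.03). The 95% interval ran from 0.20 to 1.84. By limma the unadjusted p was 0.0215 and the adjusted p 0.999. Among mice with low numbers, where cKO 1 faces Control 1 and 2, the difference was 0.47. Among those with high numbers, where Control 3 alone faces cKO 2 and 3, it was 1.84. Without Control 3 it was 0.67, and after quantile normalization 0.93.

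Timp2, which both inhibits Mmp2 and helps Mmp14 to activate it, overlapped between groups. Its signal was 8.47, 8.80 and 9.20 in Control and 9.33, 8.93 and 9.38 in cKO. Control 1 and 2 were the 2 lowest arrays, and Control 3 lay above cKO 2. The difference was 0.39 (SE 0.25, interval -0.20 to 0.99). The low-number mice gave 0.70 and the high-number mice -0.04. Timp3, an inhibitor that binds to the matrix and also blocks ADAM17 and the proteoglycan-cleaving ADAMTS enzymes, stood at 6.74, 6.50 and 6.39 in Control and 6.77, 6.82 and 7.06 in cKO. The lowest cKO array exceeded the highest Control array by little, and the groups overlapped after quantile normalization. The difference was 0.34 (SE 0.17, interval -0.06 to 0.74). Timp1, the inhibitor induced in inflamed and injured tissue, lay below the filter. It was at 3.82, 3.55 and 3.86 in Control and 4.06, 3.93 and 4.76 in cKO, and cKO 3 was the 1 array on which it exceeded the array median. Its difference of 0.51 had a standard error of 0.23 in the fit without a filter (limma unadjusted p = 0.0572, adjusted p = 0.99972).

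In the RefSeq table Timp1, Timp3 and Timp4 each lie inside a synapsin gene, Syn1, Syn3 and Syn2 in that order. The sources used here do not state how the probes treat strand, so signal of each pair may not be fully separate. Syn1 and Syn3 were below the filter, and Syn2 stood at 4.11 to 4.24 in Control and 4.24 to 4.31 in cKO, a difference of 0.08. Whether the signals of each pair are separate was not tested.

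**Figure D3:**
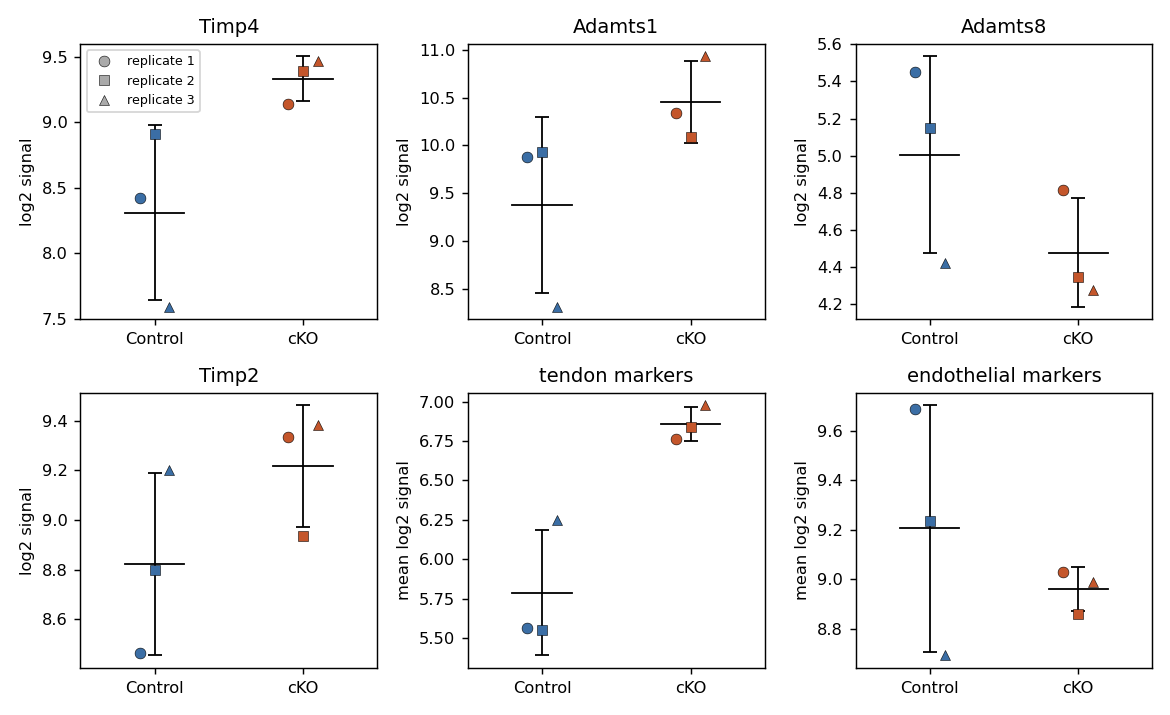
Log2 signal (y axis) in Control and cKO for Timp4, Adamts1, Adamts8 and Timp2, and the mean log2 signal of the tendon and endothelial marker lists. Each symbol is 1 array, horizontal lines are group means and bars are SD (n = 3). Control 3 is lowest for Timp4, Adamts1 and the endothelial list, while tendon markers do not overlap between groups.

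Matrix metalloproteinases above the filter showed no separation between genotypes. Mmp2, the gelatinase that cuts denatured collagen and basement membrane collagen, was at 8.14, 9.30 and 9.02 in Control and 8.48, 8.28 and 9.26 in cKO. High and low arrays occurred in both groups. The difference was -0.15 (SE 0.39), and its interval from -1.07 to 0.77 was the widest among the tested Mmp genes. Mmp14, the membrane-type enzyme that activates Mmp2, was at 5.88, 6.18 and 6.67 in Control and 6.43, 5.997 and 6.59 in cKO. Its difference of 0.09 (SE 0.26, interval -0.52 to 0.70) split into 0.40 in the low-number and -0.38 in the high-number mice, and its sign turned after quantile normalization. Mmp19, Mmp11 (stromelysin-3) and Mmp28 (epilysin) had signals between 4.58 and 4.95 on all arrays. They differed by 0.13, 0.05 and 0.05, with standard errors of 0.12 to 0.13.

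Of the 21 tested members 6 (Mmp2, Mmp14, Mmp19, Timp2, Adamts5 and Adamtsl3) had their lowest value on Control 1. More members had it on Control 2, namely Adamts6, Adamts10, Adamts12, Adamts14, Adamts20, Adamtsl1, Adamtsl4, Adamtsl5, Mmp11 and Mmp28. The share of all features lowest on each array is not given here. Control 1 also had the lowest means of the connective tissue fibroblast and macrophage markers. The fibroblast list stood at 8.72, 9.01 and 9.40 in Control and at 9.28, 8.83 and 9.72 in cKO. The macrophage list stood at 5.75, 6.22 and 6.24 in Control and at 6.27, 5.96 and 6.73 in cKO. The part of fibroblast or macrophage content in these values was not tested.

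Among the proteases of the Adamts family, Adamts1 had the largest difference and Adamts8 was the only tested one lower in cKO on the deposited scale. Adamts1 cleaves versican and aggrecan. Its signal was 9.88, 9.93 and 8.31 in Control and 10.34, 10.09 and 10.93 in cKO. All cKO arrays lay above all Control arrays, and Control 3 lay far below the other Controls. The difference of 1.08 (SE 0.48, a fold of 2.11) had an interval from -0.07 to 2.23 and a limma adjusted p of 0.999. The low-number mice gave 0.43 and the high-number mice 2.20, and without Control 3 the difference was 0.55. With the number range in the model the difference was 1.32 (limma unadjusted p = 0.0290, adjusted p = 0.765).

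Adamts8, a close relative of Adamts1, was at 5.45, 5.15 and 4.42 in Control and 4.81, 4.34 and 4.28 in cKO. Control 1 and 2 were the highest arrays, while Control 3 lay among the cKO arrays. The difference was -0.53 (SE 0.29, interval -1.22 to 0.16), with -0.49 in the low-number and -0.11 in the high-number mice. It moved both ways with single arrays, to -0.82 without Control 3 (limma unadjusted p = 0.00921, adjusted p = 0.337) and to -0.31 without Control 1 (limma unadjusted p = 0.325). With the number range in the model it was -0.30 (limma unadjusted p = 0.106). Endothelial markers also had their highest means on Control 1 and 2, with 9.69, 9.24 and 8.69 in Control and 9.03, 8.86 and 8.99 in cKO. Control 3, the array lowest for Timp4 and Adamts1, was the lowest of all for the endothelial list. Between groups that list moved opposite to Timp4 and Adamts1. Of its 10 tested genes 2 were higher and 8 lower in cKO, where 65.8% of all features were higher. After quantile normalization 0 were higher, where 49.1% of all features were. The part of endothelial content in Timp4, Adamts1 and Adamts8 was not tested.

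Adamts10, a protease that binds fibrillin microfibrils, was at 5.43, 5.004 and 5.37 in Control and 5.65, 5.52 and 5.96 in cKO. The groups did not overlap on the deposited scale and did after quantile normalization. The difference was 0.44 (SE 0.18, interval 0.01 to 0.88, limma unadjusted p = 0.0474), and it was alike in the low-number (0.43) and high-number mice (0.37). Adamts5, an aggrecan- and versican-cleaving enzyme, was at 7.09, 7.81 and 8.48 in Control and 7.99, 7.66 and 7.99 in cKO. The Control arrays spanned the cKO arrays on both sides. Its difference of 0.09 (SE 0.35) split into 0.54 in the low-number and -0.65 in the high-number mice, and its sign turned after quantile normalization. The other tested Adamts genes overlapped between groups. They were Adamts12, an enzyme that can cleave the tendon protein Comp, Adamts20 and Adamts9, which cleave versican, Adamts14, which trims procollagen, and Adamts6. Their differences ran from 0.01 for Adamts14 to 0.23 for Adamts20, with standard errors of 0.12 to 0.17.

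The tested ADAMTS-like genes had standard errors of 0.12 to 0.16. Adamts14 and Mmp28 were as low, at 0.12 each. Of the 4 tested ADAMTS-like genes, 3 were wholly above Control on the deposited scale, where 8.95% of all features were. After quantile normalization 2 were, and after centring on array medians 1. Adamtsl5 was at 6.41, 6.37 and 6.50 in Control and 6.71, 6.69 and 7.02 in cKO. Every cKO array lay above every Control array, also after quantile normalization but not after centring on array medians, and cKO 3 was the highest. The means were 6.43 ± 0.07 (SD, n = 3) and 6.81 ± 0.19 (SD, n = 3), a difference of 0.38 (SE 0.15, a fold of 1.30). The limma unadjusted p was 0.0428 and the adjusted p 0.999, and the low-number (0.32) and high-number mice (0.36) gave like differences. Adamtsl4, which binds fibrillin and is needed for the anchoring of the eye lens, was at 8.02, 7.90 and 7.97 in Control and 8.15, 8.30 and 8.47 in cKO. Its groups were separated as deposited and overlapped after quantile normalization, with a difference of 0.34 (SE 0.16, interval -0.05 to 0.73). Adamtsl1 stood little above the array medians, at 4.33 to 4.42 in Control and 4.48 to 4.70 in cKO. Its difference was 0.17 (SE 0.12, limma unadjusted p = 0.196). Adamtsl3 differed by 0.11 (SE 0.13) with overlapping groups.

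The 28 members below the filter had values of 3.08 to 4.76. Among them were Mmp9, the gelatinase of neutrophils and osteoclasts, at 3.55, 3.54 and 3.56 in Control and 3.78, 3.44 and 3.50 in cKO. Adamts4, which cleaves aggrecan, was at 3.34, 3.38 and 3.41 in Control and 3.62, 3.39 and 3.42 in cKO. Adamts15, a versican-cleaving enzyme, was at 3.98, 3.86 and 3.99 in Control and 4.04, 3.83 and 3.89 in cKO. In these 3 genes cKO 1 was the highest array and the groups overlapped, as in Adamtsl2, which was at 3.91, 3.83 and 3.89 in Control and 4.10, 3.78 and 3.80 in cKO. Others were the procollagen-trimming Adamts3, the von Willebrand factor protease Adamts13, the Comp-cleaving Adamts7, the membrane-bound Mmp16, Mmp17, Mmp23, Mmp24 and Mmp25, Mmp21, and Adamts16 to Adamts19. The array cKO 1 was the highest of the 6 for 26 of the 28, the exceptions being Timp1 and Mmp12. It exceeded the median of the other 5 arrays by a median of 0.29, whereas those 5 arrays spanned a median range of 0.13. Over all 32622 features below the filter cKO 1 was the highest for 65.3%, and its excess over the others had the same median of 0.29. The higher values on cKO 1 were therefore shared by low features in general.

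**Figure D4:**
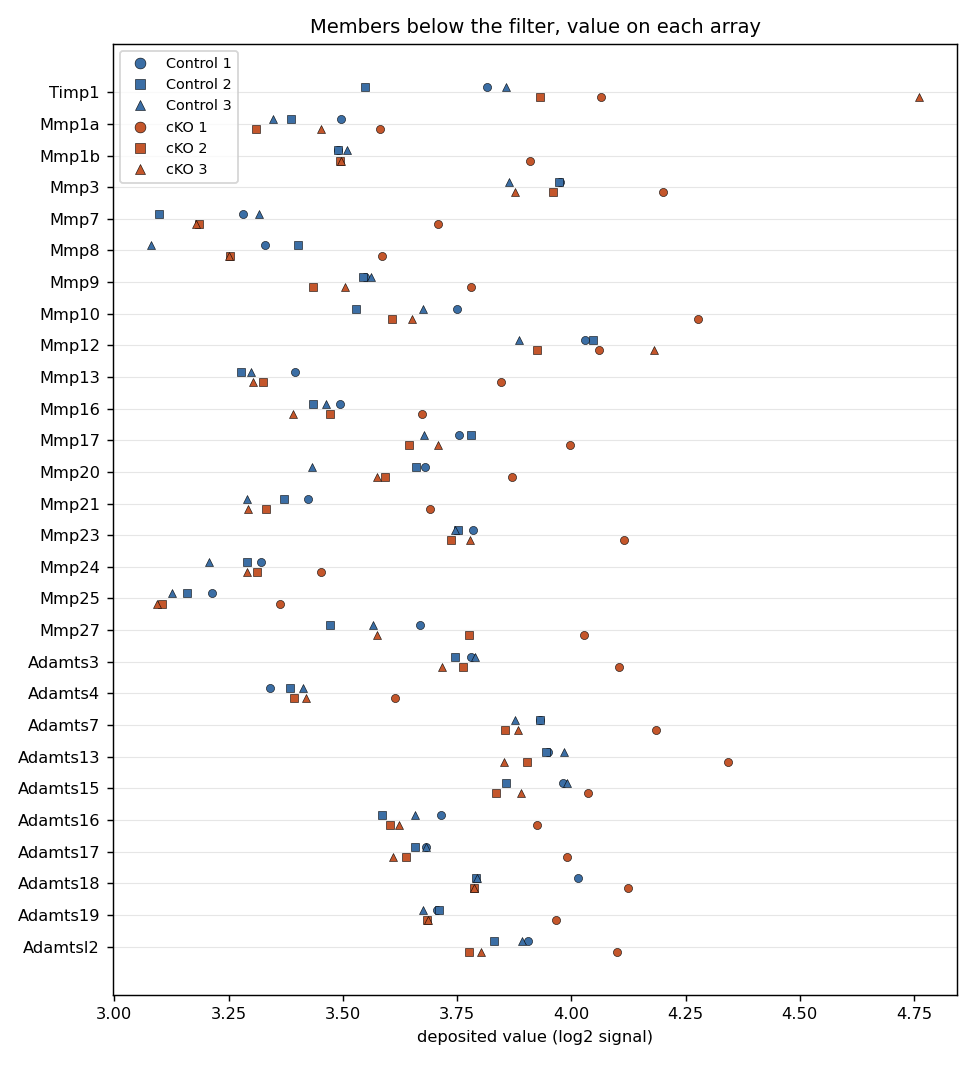
Deposited log2 signal (x axis) of the 28 members below the filter (y axis), with 1 symbol per array, Control in blue and cKO in orange. The orange circle, cKO 1, is rightmost in 26 rows, and cKO 3 stands at 4.76 for Timp1.

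The low members included a whole run of neighbouring genes on chromosome 9. Of the 10 genes Mmp13, Mmp12, Mmp1b, Mmp3, Mmp1a, Mmp10, Mmp8, Mmp27, Mmp20 and Mmp7, which follow each other in RefSeq with no other protein-coding gene between them, 0 passed the filter. They hold the interstitial collagenases (Mmp1a, Mmp1b, Mmp8 and Mmp13), the stromelysins (Mmp3 and Mmp10), matrilysin (Mmp7), the macrophage elastase (Mmp12) and the enamel protease (Mmp20). Their values ran from 3.08 for Mmp8 in Control 3 to 4.28 for Mmp10 in cKO 1. Mmp1a and Mmp1b are close copies, and signals of that pair may not be fully separate. Macrophage markers were present in the same muscles, with list means of 5.75 to 6.24 in Control and 5.96 to 6.73 in cKO, while 6 of 10 neutrophil markers, Mpo and Elane among them, lay below the filter.

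The promoters of 6 genes of this run are shown as examples of an AP-1 motif ahead of a TATA box, an arrangement that Mmp12 and Mmp20 also have and the 14 tested members with a promoter entry lack. Each is the 120 bases before the annotated start, 5′ to 3′, from RefSeq on GRCm38.p6. Capitals mark the AP-1 motif (TGANTCA, which reads the same pattern on both strands) and the TATA box (TATAAA).
Mmp13, chr9:7272394-7272513, plus strand: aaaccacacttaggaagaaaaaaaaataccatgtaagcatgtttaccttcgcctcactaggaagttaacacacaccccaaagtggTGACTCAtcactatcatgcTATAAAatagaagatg
Mmp3, chr9:7445702-7445821, plus strand: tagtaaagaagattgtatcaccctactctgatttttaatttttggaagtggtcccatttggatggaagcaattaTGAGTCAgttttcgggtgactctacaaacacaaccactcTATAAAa
Mmp10, chr9:7502222-7502341, plus strand: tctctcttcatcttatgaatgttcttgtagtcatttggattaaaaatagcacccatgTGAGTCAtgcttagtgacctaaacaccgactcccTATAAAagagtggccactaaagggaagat
Mmp1a, chr9:7464021-7464140, plus strand: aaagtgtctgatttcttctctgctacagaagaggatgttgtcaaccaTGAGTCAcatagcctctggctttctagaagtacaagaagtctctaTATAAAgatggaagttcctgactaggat
Mmp7, chr9:7691970-7692089, plus strand: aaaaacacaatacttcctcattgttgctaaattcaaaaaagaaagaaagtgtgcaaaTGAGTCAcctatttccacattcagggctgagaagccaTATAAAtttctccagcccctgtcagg
Mmp1b, chr9:7388027-7388146, minus strand: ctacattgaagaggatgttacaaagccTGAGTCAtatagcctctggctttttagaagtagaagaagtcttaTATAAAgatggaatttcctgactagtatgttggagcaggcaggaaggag
In all 6 the AP-1 motif stands upstream of the TATA box within the printed stretch, with its first base between positions -93 and -35 from the annotated start. Over the 300-base windows, from 250 bases before to 50 after the start, 8 of the 10 genes of the run held an AP-1 motif, 9 held a TATA box and 0 held a GC box. The exceptions for AP-1 were Mmp8 and Mmp27, and Mmp27 also had no TATA box. Of 14 tested members with a promoter in the table, 0 held AP-1, 12 held a GC box and 1, Adamts1, a TATA box. Of 10 members below the filter that lie elsewhere, 0 held AP-1 and 8 a GC box. The background was 7.81% of all promoters for AP-1, 35.7% for the GC box and 13.6% for the TATA box, and no matches to different motifs overlapped. The genes of the run are related copies, so they do not count as independent, and 15 members had no entry in the table.

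**Figure D5:**
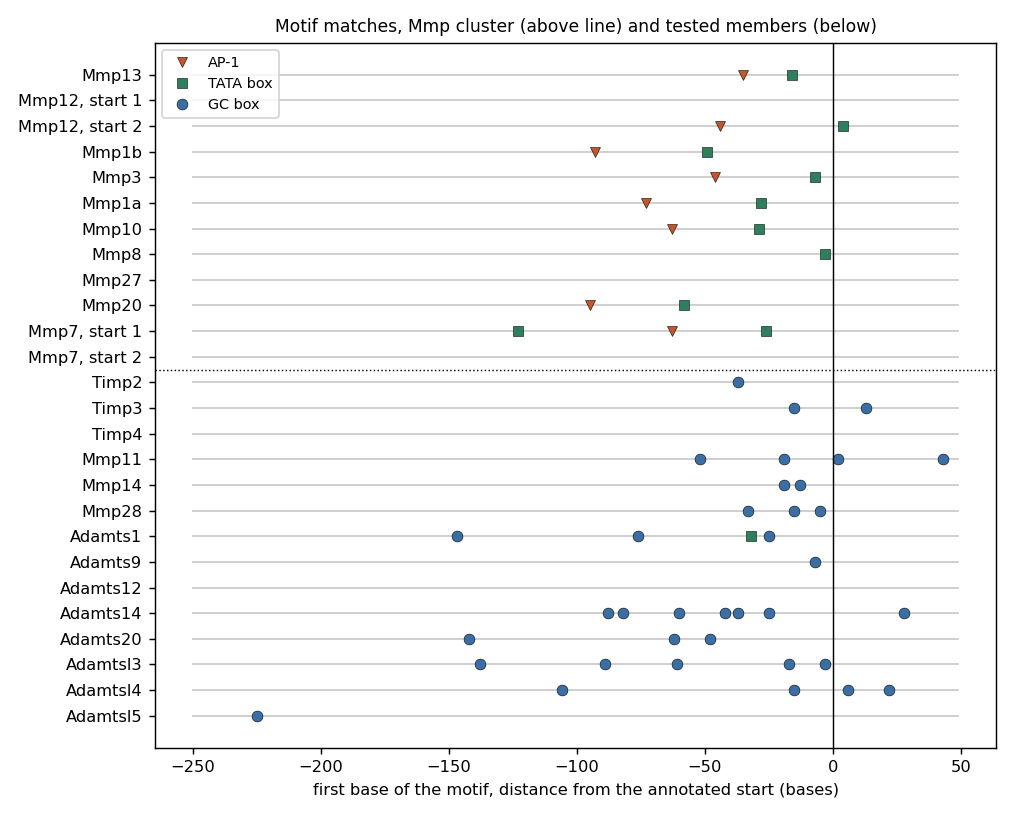
Position of the first base of each motif match (x axis, bases from the annotated start) in the promoters of the Mmp run on chromosome 9 (above the dotted line) and of the 14 tested members with an entry (below it), with each start of a gene on its own row. AP-1 matches are triangles, TATA boxes squares and GC boxes circles. AP-1 matches occur above the line and GC boxes below it.

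Genes that activate, clear or anchor these enzymes were followed as a list of 28, of which 21 were tested. In limma 0 passed an adjusted p of 0.05, 2 had an unadjusted p under 0.05, both higher in cKO, where 3.7% of all features were called higher, and the median difference was 0.23 (0.13 after quantile normalization). The matrix protein Thbs1, which binds Mmp2 and Mmp9, was at 7.12, 7.43 and 8.32 in Control and 8.62, 8.53 and 9.14 in cKO. All cKO arrays lay above the Controls, with a difference of 1.14 (SE 0.34, limma unadjusted p = 0.0138). Cd44, a cell-surface receptor that can hold Mmp9, was at 5.67, 5.64 and 5.55 in Control and 6.07, 5.91 and 6.65 in cKO, a difference of 0.59 (SE 0.21, limma unadjusted p = 0.0271), also without overlap. Furin, which cuts the precursors of membrane-type Mmp and of ADAMTS enzymes, differed by 0.32 (SE 0.15), and the membrane-anchored inhibitor Reck by 0.16 (SE 0.14). Plasminogen (Plg) and the blood inhibitor A2m were below the filter.

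A list of ADAM genes, from a sister family, had 8 tested genes, of which 5 were higher, 3 lower and 0 past the adjusted threshold. Adam15 was at 5.52, 5.31 and 5.29 in Control and 5.60, 5.74 and 5.87 in cKO, a difference of 0.37 (SE 0.14, limma unadjusted p = 0.0341). Adam10 and Adam17, the main enzymes that shed membrane proteins, differed by -0.21 (SE 0.17) and 0.08 (SE 0.16). Among 15 tested substrates and partners in the matrix, 13 were higher where 65.8% of all features were, and 9 were after quantile normalization where 49.1% of all features were. In limma 0 passed the adjusted threshold, and the median difference was 0.22 (0.09 after quantile normalization). Comp, a tendon and cartilage protein that Adamts7 and Adamts12 can cleave, was the 1 at an unadjusted p under 0.05. It stood at 5.51, 5.38 and 6.58 in Control and 6.60, 6.98 and 7.06 in cKO, and differed by 1.06 (SE 0.34), but it was also a tendon marker here. Versican (Vcan), the substrate of Adamts1, Adamts5, Adamts9 and Adamts20, differed by 0.22 (SE 0.23).

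Marker lists differed in how they moved between groups. Of all features 65.8% were higher in cKO, and 3.7% were higher at a limma unadjusted p under 0.05. The tendon list had 11 of 11 tested genes higher in cKO and 6 at that level, with only Mkx below the filter. Its list means did not overlap between groups. Among Controls the tendon mean was highest on Control 3 (6.25), the array on which Timp4 and Adamts1 were lowest. Macrophage (10 of 12 higher), smooth muscle and pericyte (7 of 9) and Schwann cell markers (3 of 5) overlapped between groups in their list means. The smooth muscle and Schwann cell counts were near the share of all features. Endothelial markers went the other way, with 2 of 10 tested genes higher and 8 lower, and their list means also overlapped. The smooth muscle list was lowest on Control 3, at 8.08 against 8.29 to 8.60 on the other arrays. Adipocyte markers, a list added after the values were seen because Timp4 is made in fat, had means of 7.28 to 7.30 in Control and 7.48 to 7.77 in cKO. Of 9 tested adipocyte genes 6 were higher, against 65.8% of all features, and 3 were lower. Fabp4 (-0.06, SE 0.24) and Pparg (-0.02, SE 0.26) were among the lower ones. At a limma unadjusted p under 0.05 and wholly above Control were 4 genes (Pnpla2, Lipe, Cidec and Plin1). Of all features 8.95% were wholly above. The lipid droplet genes Cidec, with a difference of 0.61 (SE 0.23), and Plin1, with 0.36 (SE 0.14), were wholly above under all 3 scalings. The lipase gene Pnpla2, which muscle fibres also express, differed by 1.01 (SE 0.27), and Adipoq overlapped between groups. The part of tendon, adipocyte or vessel content in the members' values was not tested.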

How the data were processed

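Soleus RNA of 3 Control and 3 cKO mice was labelled from 100 ng per array with an Affymetrix whole-transcript protocol, per the labels' protocols. The deposited table held 1 column per array, read as log2 signal from its range of 1.92 to 19.93. The sources used here do not give the log base, background correction, normalization or software. Of 72688 features, 6732 had no value and 33334 were tested. Gene symbols came from the platform annotation. limma 3.58.1 in R 4.3.3 (lmFit, eBayes with an intensity trend, two-sided) was fitted over all features tested without a block. Intervals are 95% and come from that fit. Simulated arrays with independent noise and no array shifts checked only that planted differences were recovered on average. No overlap of 3 against 3 arrays corresponds to a two-sided exact permutation p of 0.1, the smallest possible. Replicates were separate mice, and 6 arrays limit the precision. Array values are given for every tested member with an unadjusted p under 0.05 or a difference of at least 0.5, for a fixed set of inhibitors and proteases, for the 8 tested members with the highest mean, and for up to 4 genes of each pathway list at an unadjusted p under 0.05. Other genes named with values, such as Furin, Reck, Adam10, Adam17, Vcan, Pnpla2, Cidec, Plin1 and the synapsins, were chosen after their values were seen. Members, lists and motifs were chosen with earlier results of these data known. Promoters were searched on both strands with Python 3.11.15, with pandas 2.3.3 for tables and matplotlib 3.10.9 for plots.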

Additional observations from a re-analysis of the deposited data

How the results depend on the processing

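Without a filter, at the 75th percentile filter, and in every other fit run here, 0 members passed an adjusted p of 0.05, and 0 did at 0.10. At an unadjusted p under 0.01 with a fold of at least 1.5 there were 0 members in the fit reported. Other limma fits took members past that level, namely array weights (Timp4 at 1.03 and Adamts8 at -0.82), the fit without Control 2 (Timp4 at 1.33) and the fit without Control 3 (Adamts8 at -0.82). By limma the 3 members at an unadjusted p under 0.05 became 1 after centring on array medians, 0 after quantile normalization and 1 with quantile normalization and the range of mouse numbers together, a setting chosen after seeing the data. With 1 array left out in turn the count ran from 0 (without cKO 3) to 3, with 1 without cKO 2, and Timp4 was among the members in 4 of the 6 fits. Without Control 3 the 3 were Timp2, Timp4 and Adamts8. In that fit 14 of all features, none of them a member, passed an adjusted p of 0.05. Unadjusted counts over all features in the other fits are not given here, so these member counts have no background beside them. The median difference of 0.13 was 0.23 with the 75th percentile filter (12 members tested), 0.0049 with quantile normalization and the number range together, and 0.12 to 0.25 with 1 array left out, the highest without Control 3. The 7 members with separated groups became 3 after quantile normalization and 3 after centring. With 1 array left out there were 7 to 12, with 12 without Control 3. Separation is easier for any feature with fewer arrays, and the share of all features separated in those fits is not given here. Same-numbered arrays deviated from their group means with correlations of 0.13, -0.20 and 0.21, and differently numbered ones with -0.41 to 0.39. With 3 arrays in each group these values cannot decide whether the numbers pair the mice. A fit with the replicate number as a block left 0 members past the adjusted threshold and gave 3 at an unadjusted p under 0.05 (Timp4, Adamts10 and Adamts8, with Adamts8 lower), so at that level Adamts8 entered and Adamtsl5 left. Adamts5 reversed to -0.0199 after quantile normalization, -0.0573 with the number range and -0.14 with both, and ran from -0.26 to 0.43 with 1 array left out. Mmp14 reversed to -0.0128 after quantile normalization and -0.10 with both, and ran from -0.0870 to 0.31 with 1 array left out, and Mmp2 from -0.49 to 0.0920. The cause of these shifts was not tested. The 8 other members named with tests (Timp2, Timp3, Timp4, Adamts1, Adamts8, Adamts10, Adamtsl4 and Adamtsl5) kept their direction in every fit in which they were tested (Adamts8 and Adamts10 did not pass the 75th percentile filter). Every member had 1 feature, so averaging features could not change a value.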
